A study of Saccharomyces cerevisiae with 12 samples.

Results

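SST2, MSG5, AFR1, GIC2, TEC1, CIK1, PRM4, PRM5, PRM6 and CHS1 are budding yeast genes whose products damp, shape or act in the response to mating pheromone. They were taken as a list of 10 standard names and matched by systematic identifier to the deposited table of 6219 genes, in which all 10 were found. The list was chosen with earlier results of these data known, so its counts beside shares over all genes are a description. Saccharomyces cerevisiae of the W303 background was profiled by stranded, ribosome-depleted, paired-end sequencing of total RNA. The groups were tup1(S649F) MATalpha (strain DY19306), tup1(S649F) MATa (DY19304), WT MATalpha (DY3420) and WT MATa (DY150), each with 3 replicates, which makes 12 libraries. All strains, WT included, carried ade2-1, can1-100, his3-11,15, trp1-1 and ura3-1, together with the double allele leu2-3, 112. Cells grew at 30 °C in rich medium with adenine and 2% dextrose and were taken in log phase, when the culture's density read at 660 nm was 0.6 to 0.8. No pheromone treatment is named in the labels. Each group is a single strain. Whether its replicates came from separate cultures is not said in the labels, and the p-values therefore speak to the spread between these samples, which may be technical. The mutation is a point substitution, so the level of TUP1 RNA cannot check the genotype labels.

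A haploid yeast cell secretes the pheromone of its own mating type and carries the receptor for the other. The bound receptor frees the beta and gamma subunits of a G protein, a kinase cascade ending in Fus3 and Kss1 is activated, and the transcription factor Ste12 binds pheromone response elements (TGAAACA) before its target genes. Among these targets are inhibitors that desensitise the cell, genes that build the mating projection and genes for nuclear fusion. Tup1 forms a corepressor with Cyc8 that DNA-binding proteins recruit to their targets. One of these is alpha2, which keeps MATa-specific genes silent in MATalpha cells.

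The bases before the start codons are shown first because most of these genes hold an exact match to the response element there. Within 500 bases before the start codon of the R64 reference, read on both strands, TGAAACA was found for 7 of the 10 genes (70%), against 721 (12%) of 6000 nuclear protein-coding genes. The matches nearest the start codon lay 94 bases upstream of TEC1, 146 of CIK1, 156 of PRM6, 245 of SST2, 246 of PRM5, 341 of CHS1 and 382 of AFR1. TEC1 held 3 matches and PRM6 held 2, a density of at least 2 that 0.933% of all the genes reached. The stretches around these matches follow, each on the coding strand and in R64 coordinates, with the element in capitals.
TEC1, chrII:408980-409111, plus strand: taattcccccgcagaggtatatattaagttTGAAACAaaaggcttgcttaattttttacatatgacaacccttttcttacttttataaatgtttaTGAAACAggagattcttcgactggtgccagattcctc
AFR1, chrIV:616496-616562, minus strand: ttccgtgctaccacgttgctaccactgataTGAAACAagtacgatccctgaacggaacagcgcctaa
PRM5, chrIX:141779-141845, minus strand: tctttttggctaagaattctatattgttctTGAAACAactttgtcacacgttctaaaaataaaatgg
SST2, chrXII:1041575-1041641, minus strand: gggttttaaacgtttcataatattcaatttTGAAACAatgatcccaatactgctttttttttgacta
PRM6, chrXIII:181195-181261, minus strand: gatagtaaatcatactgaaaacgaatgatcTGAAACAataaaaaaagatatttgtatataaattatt
CIK1, chrXIII:659569-659635, plus strand: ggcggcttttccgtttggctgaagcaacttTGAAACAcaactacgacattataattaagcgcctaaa
CHS1, chrXIV:276131-276197, plus strand: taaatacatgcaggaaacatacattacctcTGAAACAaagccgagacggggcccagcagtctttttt

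The other motifs searched were found before fewer of the genes. CATTCC, the site known for Tec1, occurred in either orientation before TEC1, MSG5 and GIC2, which is 3 of the 10 genes, against 17.8% of all genes. A form of the site of the cell wall integrity factor Rlm1, CTA and TAG with 4 bases of any kind between them, occurred before AFR1 and CHS1, against 9.27% of all genes. PRM4 held none of the 3 motifs in its window, and no matches overlapped each other. A match is a description of the letters and shows no binding.

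**Figure D1:**
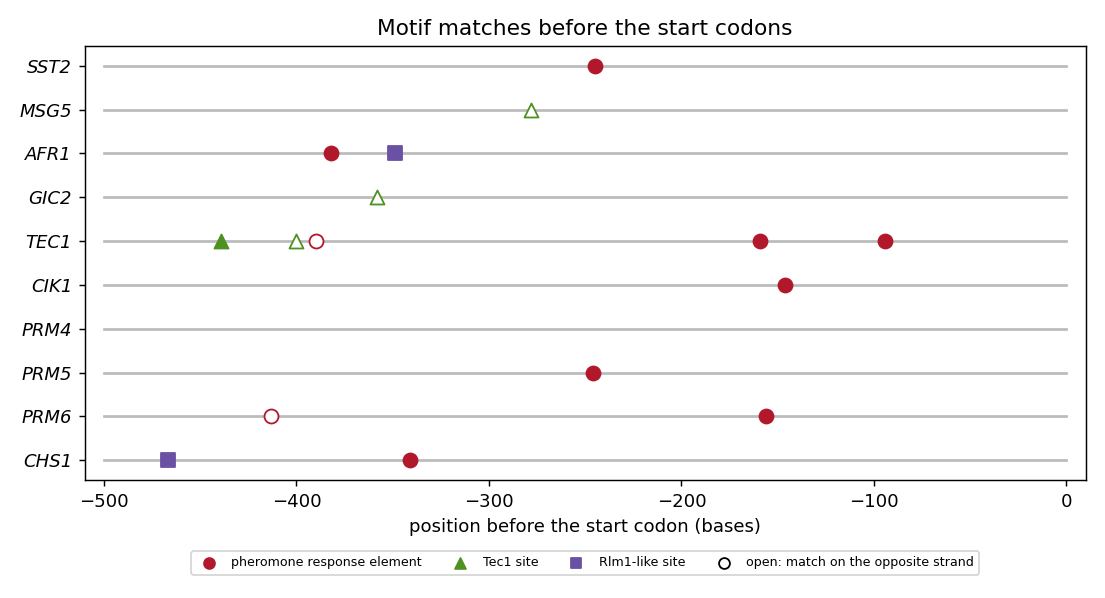
Matches to 3 motifs in the 500 bases before the start codon of each of the 10 genes, plotted by distance from the start codon in bases, on either strand. TGAAACA matches lie before 7 genes, with 3 before TEC1 and 2 before PRM6, and PRM4 has no match of any kind.

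Levels are CPM, that is counts scaled to a common library total with TMM factors, and library totals ran from 5657714 to 9300353 counts. Of 6219 genes, 5654 passed a low-count filter and were tested. A gene is said to have risen or fallen where edgeR's quasi-likelihood test gave a Benjamini-Hochberg adjusted p under 0.05 over all genes tested, and every adjusted p below is from that test. The replicates of tup1 MATa included 1 library that stood apart, since the chi-square per degree of freedom between replicates was 21.0 and 28.3 for replicate 1 against the others, 4.08 between those others, 7.40 to 12.2 within tup1 MATalpha and 1.40 to 2.68 within the WT groups. Leaving it out ended no call of the 10 genes in either comparison of tup1 with WT. In these bulk samples, fewer cells of a type and less RNA per cell cannot be told apart.

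The summed levels of markers of mating type, of haploid cells and of meiosis were higher in tup1 MATalpha than in WT MATalpha. For the counts of rises and falls given here, 32% of all tested genes rose and 31% fell in MATalpha. In MATa, 24.7% of all tested genes rose and 16.7% fell. The summed level of 7 MATa markers (STE2, STE6, MFA1, MFA2, BAR1, AGA2 and HMRA1) was 1806 to 2673 CPM in tup1 MATalpha libraries, against 25.0 to 26.3 CPM in WT MATalpha libraries, and 6 of the 7 rose. It was 1731 to 1896 CPM in tup1 MATa libraries, against 1810 to 1877 CPM in WT MATa libraries. HMRA1, which encodes the a1 regulator, had 0 counts in every MATalpha library of either genotype. HMLALPHA1, listed among 5 MATalpha markers, had 0 counts in every library, WT MATalpha included, so it could not serve as a marker here. The summed level of the 5 MATalpha markers was 7113 to 10634 CPM in tup1 MATalpha, against 2660 to 2927 CPM in WT MATalpha, and 3 of the 4 tested rose. It was 48.05 to 52.5 CPM in tup1 MATa, against 42.1 to 47.6 CPM in WT MATa. The 5 meiotic markers (IME1, IME2, SPO11, SPO13 and NDT80) summed to 42.7 to 44.1 CPM in tup1 MATalpha, against 11.1 to 13.0 CPM in WT MATalpha, and IME1, IME2 and SPO11 rose. They summed to 15.7 to 24.7 CPM in tup1 MATa, against 12.1 to 13.8 CPM in WT MATa, and IME1 rose. The 7 haploid markers summed to 608 to 706 CPM in tup1 MATalpha, against 486 to 499 CPM in WT MATalpha, with 3 rises. With upper-quartile scaling 2 of the haploid markers rose and 2 fell in MATalpha. The haploid markers summed to 528 to 573 CPM in tup1 MATa, against 451 to 484 CPM in WT MATa, with 2 rises and 1 fall. The numbers of haploid markers that rose lay near the shares over all tested genes. The tup1 MATalpha libraries thus held RNA of the receptor and pheromone genes of both mating types. The part of these markers in the results below was not tested.

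All 10 genes passed the low-count filter, but PRM6 did so through tup1 MATalpha alone, which fixed its direction there, so it is left out of the counts that follow and described by itself. The remaining 9 all rose in tup1 MATalpha relative to WT MATalpha, where 32% of all tested genes rose and 31% fell. At least a 2-fold rise was seen for 6 of the 9, against 12.9% of all tested genes. In tup1 MATa relative to WT MATa, 6 of the 9 rose, 1 fell and 2 did not pass the test, where 24.7% of all tested genes rose and 16.7% fell. AFR1 was the single gene of the 9 with a rise of at least 2-fold there, against 8.08% of all tested genes. The median log2 fold change of the 9 was 1.38 in MATalpha and 0.27 in MATa, against -0.03 and -0.01 over all tested genes. All 9 had the 3 tup1 MATalpha libraries above the 3 WT MATalpha libraries, as had 34% of all tested genes. In MATa, 6 of the 9 had the tup1 libraries above the WT libraries, 1 had them below and 2 overlapped, against 27.2% above and 23.2% below over all tested genes.

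**Figure D2:**
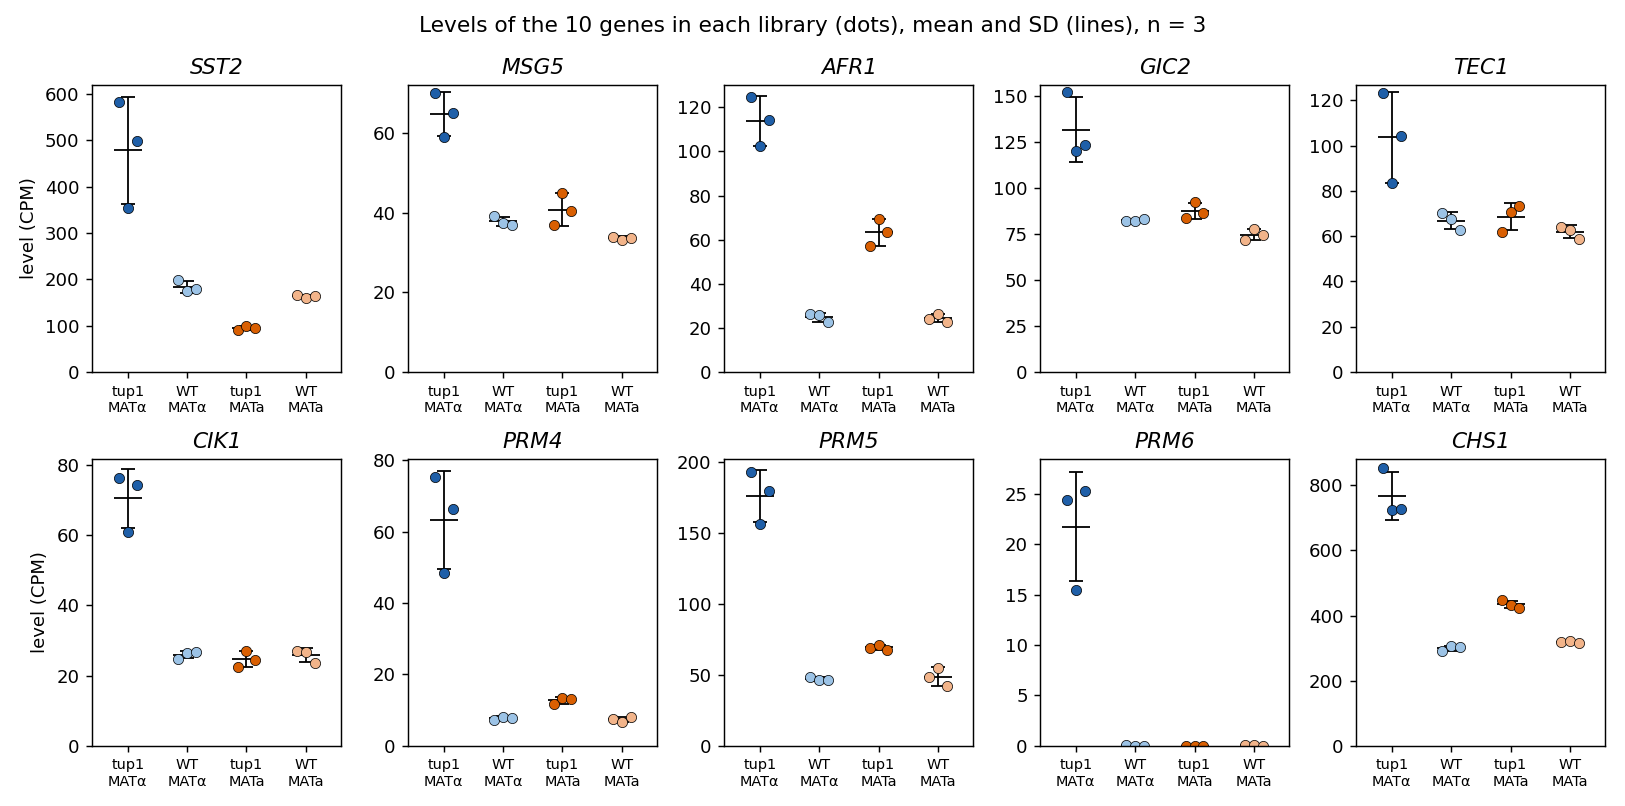
Level of each of the 10 genes in every library, in CPM on linear axes that start at 0, with 1 panel per gene. Dots are the 3 replicates of a group, and lines their mean and SD. The tup1 MATalpha libraries lie above the other groups in every panel, and only SST2 has its tup1 MATa libraries below the WT MATa libraries without overlap.

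The direction of change in MATa separated the feedback regulators. SST2 encodes the GTPase-activating protein that switches off the G protein alpha subunit Gpa1 and so desensitises the cell to pheromone. Its level was 583, 354 and 497 CPM in tup1 MATalpha, against 198, 174 and 179 CPM in WT MATalpha. In tup1 MATa it was 90.5, 99.2 and 94.2 CPM, against 166, 160.4 and 164 CPM in WT MATa. The 2 mating types therefore moved apart, with every tup1 MATalpha library above WT and every tup1 MATa library below it. The log2 fold change was 1.38 ± 0.13 (SE) in MATalpha (adjusted p 3.9e-07) and -0.79 ± 0.13 in MATa (adjusted p 0.000321), which corresponds to 0.579 of the WT level in MATa. The difference between those effects, MATalpha minus MATa, was 2.17 ± 0.19 on the log2 scale (adjusted p 2.11e-06), the second largest among the 9 genes for which it can be read as a fold.

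MSG5 encodes a dual-specificity phosphatase that acts on Fus3 and on Slt2, the kinase of the cell wall integrity pathway. Its level was 69.9, 58.9 and 65.0 CPM in tup1 MATalpha, against 39.1, 37.4 and 36.8 CPM in WT MATalpha, so it rose 1.70-fold (log2 0.77 ± 0.08, adjusted p 1.92e-07). In MATa it was 36.7, 44.96 and 40.3 CPM in tup1, against 33.9, 33.0 and 33.7 CPM in WT. The groups did not overlap in either mating type. The log2 change in MATa was 0.27 ± 0.09 (adjusted p 0.0191), a call that upper-quartile scaling ended (0.17, adjusted p 0.138). It was also lost when tup1 MATa replicate 2 (0.108) or WT MATa replicate 2 (0.0542) was left out. The interaction was 0.49 ± 0.12 on the log2 scale (adjusted p 0.00616).

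AFR1 and GIC2, the polarity genes of the list, rose in both mutant strains and rose further in MATalpha. The MATa call of GIC2 depended on the setting, as given below. AFR1 encodes a protein of the mating projection that acts on septin organisation and on the regulation of the alpha-factor receptor. Its level was 124.8, 102.3 and 114 CPM in tup1 MATalpha, against 26.4, 25.7 and 22.6 CPM in WT MATalpha. In MATa the level was 56.9, 69.5 and 63.4 CPM in tup1, against 24.1, 26.3 and 22.6 CPM in WT. The WT groups overlapped, while both tup1 groups stood clear of them and of each other. AFR1 rose 4.54-fold in MATalpha (log2 2.18 ± 0.10, adjusted p 2.02e-13) and 2.59-fold in MATa (log2 1.37 ± 0.10, adjusted p 7.4e-10), and the effects differed by 0.81 ± 0.14 (adjusted p 0.000338). It had the largest log2 rise in MATa of the 10 genes.

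GIC2 encodes an effector of Cdc42, which sets the site of polarised growth. Its level was 151.9, 119.9 and 123.1 CPM in tup1 MATalpha, against 82.0, 82.0 and 82.9 CPM in WT MATalpha, a rise of log2 0.67 ± 0.08 (adjusted p 4.42e-07). The MATa levels were 83.8, 92.4 and 86.2 CPM in tup1, against 71.7, 77.5 and 74.5 CPM in WT. These MATa groups were close but did not overlap, and the log2 change was 0.23 ± 0.08 (adjusted p 0.0293). Upper-quartile scaling ended the call (0.12, adjusted p 0.223), as did DESeq2 (adjusted p 0.0563). So did leaving out tup1 MATa replicate 2 (adjusted p 0.112), WT MATa replicate 1 (0.0976) or WT MATa replicate 3 (0.0608). The interaction was 0.44 ± 0.11 (adjusted p 0.00721).

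TEC1 and CIK1 rose in MATalpha and did not pass the test in MATa. TEC1 encodes the transcription factor that directs filamentation genes together with Ste12 and whose protein is marked for destruction by Fus3. Its level was 123.2, 83.3 and 104.4 CPM in tup1 MATalpha, against 70.1, 67.6 and 62.8 CPM in WT MATalpha (log2 0.62 ± 0.11, adjusted p 7.43e-05). In MATa it was 61.8, 70.6 and 73.3 CPM in tup1, against 64.3, 62.9 and 58.7 CPM in WT, and these groups overlapped (log2 0.14, adjusted p 0.318). The difference between the effects was 0.48 ± 0.15 (adjusted p 0.0313). It missed the threshold with upper-quartile scaling (adjusted p 0.0609) and when any of 7 libraries was left out in turn, with adjusted p of 0.0815 without WT MATa replicate 1, 0.0743 without WT MATa replicate 2, 0.0554 without WT MATalpha replicate 2, 0.0761 without WT MATalpha replicate 3, 0.0745 without tup1 MATa replicate 1, 0.0717 without tup1 MATalpha replicate 1 and 0.0641 without tup1 MATalpha replicate 3.

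CIK1 encodes the partner of the minus-end directed kinesin Kar3, which draws the 2 nuclei together after mating and also acts on the spindle in growing cells. Its level was 76.3, 60.8 and 74.4 CPM in tup1 MATalpha, against 24.8, 26.5 and 26.7 CPM in WT MATalpha. Levels in MATa were 22.6, 27.1 and 24.4 CPM in tup1, against 27.1, 26.8 and 23.7 CPM in WT. The tup1 MATalpha libraries stood apart, and the other 9 lay between 22.6 and 27.1 CPM. CIK1 rose 2.71-fold in MATalpha (log2 1.44 ± 0.10, adjusted p 1.63e-10) and its log2 change in MATa was -0.07 ± 0.11 (adjusted p 0.625). The effects differed by 1.51 ± 0.15 (adjusted p 5.29e-07).

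The 3 PRM genes, named as pheromone-regulated membrane proteins, covered the widest range of fold changes. PRM4 had 75.2, 48.4 and 66.3 CPM in tup1 MATalpha, against 7.18, 8.13 and 7.86 CPM in WT MATalpha. In MATa it had 11.7, 13.4 and 13.04 CPM in tup1, against 7.41, 6.78 and 8.18 CPM in WT. Neither pair of groups overlapped, and the rise was 8.19-fold in MATalpha (log2 3.03 ± 0.15, adjusted p 1.28e-12) and 1.70-fold in MATa (log2 0.77 ± 0.18, adjusted p 0.00218). The difference between the effects, 2.27 ± 0.24 (adjusted p 2.11e-06), was the largest of the 9 genes. PRM4 had no exact TGAAACA match in its window, and inexact forms of the element were not searched.

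PRM5 is also known as a target of cell integrity signalling through Rlm1. Its level was 192.6, 156.4 and 179.4 CPM in tup1 MATalpha, against 48.7, 46.1 and 46.6 CPM in WT MATalpha. The MATa levels were 69.1, 70.95 and 67.5 CPM in tup1, against 48.6, 55.0 and 41.7 CPM in WT. Both tup1 groups stood clear of each other and of the WT groups, which overlapped. PRM5 rose 3.72-fold in MATalpha (log2 1.90 ± 0.09, adjusted p 5.13e-13) and 1.42-fold in MATa (log2 0.51 ± 0.09, adjusted p 0.000179), a difference of 1.39 ± 0.13 (adjusted p 2.98e-07).

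PRM6, also named KCH2, encodes a potassium transporter that acts with Kch1 in the calcium response to pheromone. It had 133, 106 and 156 counts in tup1 MATalpha, which is 24.3, 15.5 and 25.3 CPM, against 1, 0 and 0 counts in WT MATalpha. It had 0 counts in each tup1 MATa library, against 1, 1 and 0 counts in WT MATa. RNA of PRM6 was thus close to absent from the counts of every group but tup1 MATalpha, and the gene passed the low-count filter through that group alone. The ratio of tup1 MATalpha to WT MATalpha was 514, with a 95% exact interval of 91.8 to 20359.9 that covers counting error only. Against tup1 MATa, tup1 MATalpha was at least 151-fold higher, taking 3 counts over the group as the floor. In MATa both groups were at or under the floor, so no fold is given (adjusted p 0.291). The interaction had an adjusted p of 0.0074. Because the filter fixed the direction in tup1 MATalpha, the tests of PRM6 that use that group are no support.

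CHS1 encodes chitin synthase I, which repairs the wall at cell separation and is known to be induced by pheromone. Its level was 854, 723 and 727 CPM in tup1 MATalpha, against 290.2, 306 and 302 CPM in WT MATalpha. In MATa it was 447, 432 and 423 CPM in tup1, against 320.2, 322 and 317 CPM in WT. All 4 groups stood clear of each other. CHS1 rose 2.56-fold in MATalpha (log2 1.36 ± 0.07, adjusted p 3.65e-12) and 1.36-fold in MATa (log2 0.44 ± 0.07, adjusted p 5.05e-05), with a difference of 0.92 ± 0.10 (adjusted p 2.58e-06).

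**Figure D3:**
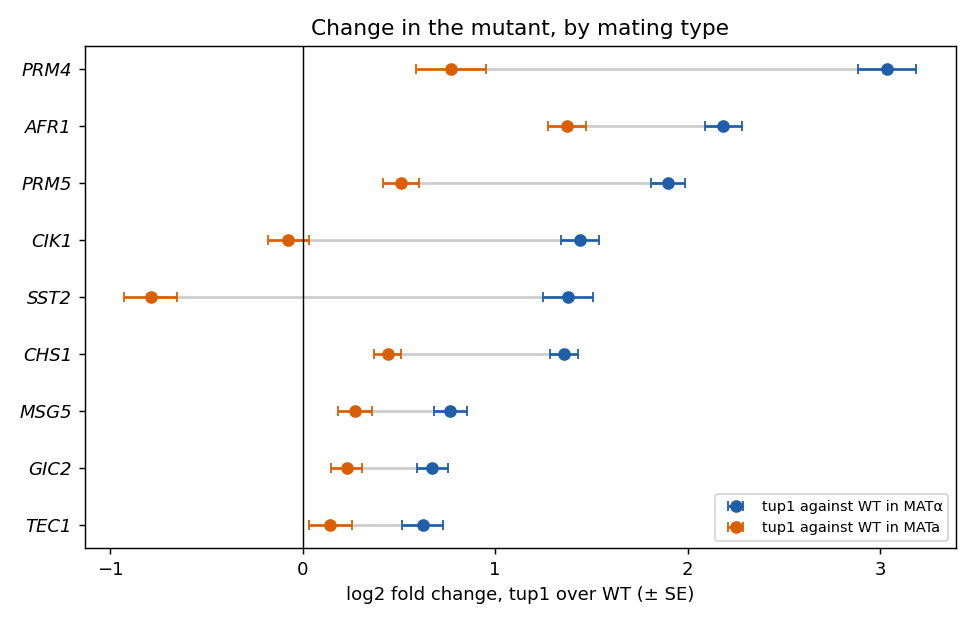
Log2 fold change of tup1 against WT for 9 of the genes, with the MATalpha and MATa values side by side and bars of 1 SE from edgeR; PRM6 is left out because its WT counts are near 0. Values in MATalpha run from 0.62 (TEC1) to 3.03 (PRM4) and those in MATa from -0.79 (SST2) to 1.37 (AFR1).

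The interaction, which tests whether the effect of the mutation differed between the mating types, was past the threshold and higher in MATalpha for the 9 genes other than PRM6, against 12.4% of all tested genes. It was at least 2-fold for PRM4, SST2, CIK1 and PRM5, which is 4 of the 9, against 3.08% of all tested genes. The median over the 9 genes was 0.92, against -0.03 over all tested genes. The comparisons share libraries, so these counts are not independent of those above.

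In WT, none of the 10 genes differed between MATalpha and MATa by edgeR, where 0.902% of all tested genes (51) differed. None had an unadjusted p under 0.05 in that comparison, and none differed by DESeq2. Log2 differences of the 9 genes, MATalpha over MATa, ran from -0.09 (CHS1) to 0.17 (SST2 and MSG5), with SE of 0.07 to 0.20. With the WT libraries fitted alone, SST2 was called higher in MATalpha (0.17, adjusted p 0.00578) and 1091 genes were called in all. Libraries of WT MATalpha lay above those of WT MATa for SST2, MSG5 and GIC2 and below for CHS1, which is 3 and 1 of the 9 genes, against 17% above and 17.2% below over all tested genes. In tup1, the 9 genes other than PRM6 were all higher in MATalpha than in MATa, where 17.8% of all tested genes were. All 9 had every tup1 MATalpha library above every tup1 MATa library, against 20.6% of all tested genes. The difference was at least 2-fold for 4 of the 9, against 3.4% of all tested genes. SST2 stood 5.05-fold higher in tup1 MATalpha than in tup1 MATa (adjusted p 1.01e-08), PRM4 4.96-fold (adjusted p 2.8e-10), CIK1 2.86-fold (adjusted p 7.17e-10) and PRM5 2.54-fold (adjusted p 4.9e-10).

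The order of the 4 group means therefore had tup1 MATalpha highest for every gene of the list other than PRM6. PRM6 is left out of these orders, since the low-count filter fixed tup1 MATalpha as its highest group. The share of all tested genes with tup1 MATalpha highest was not counted, so the orders are a description. For MSG5, AFR1, GIC2, TEC1 and PRM4 the order below tup1 MATalpha was tup1 MATa, WT MATalpha and WT MATa. For PRM5 and CHS1 the WT groups changed places. For SST2 and CIK1, tup1 MATa was lowest of all, although for CIK1 the 3 lower groups overlapped. For AFR1, TEC1, CIK1, PRM4 and PRM5 the WT groups overlapped as well, and for MSG5 and TEC1 the tup1 MATa libraries overlapped those of WT MATalpha.

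Divided by coding length, so that genes can be set against each other, SST2 and CHS1 led in tup1 MATalpha at 228 ± 55.2 and 226 ± 21.9 CPM per kb (mean ± SD, n = 3), levels that overlapped. PRM5 followed at 184 ± 19.1 and GIC2 at 114 ± 15.3 CPM per kb, while PRM6 was lowest at 20.5 ± 5.11 CPM per kb. In WT MATalpha, CHS1 and SST2 also led, at 88.2 ± 2.44 and 87.6 ± 5.96 CPM per kb, and PRM6 was lowest at 0.0309 CPM per kb. PRM4 ranked 5 of the 10 in tup1 MATalpha at 74.1 CPM per kb, against rank 9 in WT MATalpha at 9.03 CPM per kb. CHS1 was the most abundant of the 10 per length in tup1 MATa at 128 ± 3.51 CPM per kb, and in WT MATa at 94.1 ± 0.836 CPM per kb.

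Within tup1 MATalpha, the replicates differed in the same way across the list. Replicate 2 was the lowest of the 3 libraries for 10 of the 10 genes, against 34.1% of all tested genes and 29.4% of the 727 genes that rose at least 2-fold in MATalpha. The highest library exceeded the lowest by 1.18 times for CHS1 and up to 1.65 times for SST2 among the genes other than PRM6. The alpha-factor receptor gene STE2 had 701, 472 and 551 CPM in the same libraries, and FUS1, which encodes a membrane protein needed for cell fusion, had 209, 123 and 163 CPM, so both were also lowest in replicate 2. Of the relatives and partners described below, VIK1, KAR3, KCH1 and CHS3 were lowest in replicate 2 as well. YER158C, GIC1, CHS2 and SDP1 were highest in replicate 2, and YNL058C was neither. The part of this difference between libraries in the spread of the members was not tested. No call of a member in MATalpha was lost without replicate 2.

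The relatives and partners of these genes were described beside them. In MATalpha 7 of the 9 relatives rose and 1 fell, where 32% of all tested genes rose and 31% fell, and in MATa 5 rose and 0 fell, where 24.7% rose and 16.7% fell. With upper-quartile scaling 5 rose and 2 fell in MATalpha, and 3 rose and 0 fell in MATa. YER158C, the duplicate of AFR1, averaged 84.6 ± 2.46 CPM in tup1 MATalpha and 16.7 ± 1.10 CPM in WT MATalpha (SD, n = 3 each), a log2 rise of 2.35 (adjusted p 1.98e-14). It averaged 69.6 ± 5.68 CPM in tup1 MATa and 17.0 ± 1.34 CPM in WT MATa (log2 2.03, adjusted p 2.81e-13). The interaction, 0.32, did not pass the test for YER158C (adjusted p 0.0779), but did without tup1 MATa replicate 3 (adjusted p 0.0328). SDP1, the stress-induced phosphatase related to MSG5, rose by log2 2.84 in MATalpha (adjusted p 4.99e-11) and 3.48 in MATa (adjusted p 7.96e-12), with no call for the difference (-0.64, adjusted p 0.129).

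GIC1, the other effector of the pair with GIC2, fell by 0.32 on the log2 scale in tup1 MATalpha (36.3 CPM against 45.6 CPM in WT MATalpha, adjusted p 0.00685). Its log2 change in MATa was 0.17 (adjusted p 0.144), and the interaction was -0.48 (adjusted p 0.0108), opposite in sign to that of GIC2. Without tup1 MATalpha replicate 2, the MATa change of GIC1 was called (adjusted p 0.0448). The kinesin KAR3 moved as its partner CIK1 did, with a log2 rise of 0.94 in MATalpha (adjusted p 1.39e-05), no call in MATa (0.09, adjusted p 0.692) and an interaction of 0.85 (adjusted p 0.00642). VIK1, the partner of Kar3 that is not induced for mating, had a log2 change of -0.26 in MATalpha (adjusted p 0.109) and -0.04 in MATa (adjusted p 0.832). With upper-quartile scaling VIK1 was called lower in MATalpha (-0.40, adjusted p 0.0164).

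YNL058C, the duplicate of PRM5, rose by log2 0.90 in MATalpha (adjusted p 6.09e-10) and 0.40 in MATa (adjusted p 8.37e-05), with an interaction of 0.49 (adjusted p 0.000971). KCH1, the potassium transporter related to PRM6, was present in every group, at 48.9 CPM in tup1 MATalpha, against 40.1 CPM in WT MATalpha, and at 34.3 CPM in tup1 MATa, against 34.9 CPM in WT MATa. Its log2 rise of 0.28 in MATalpha (adjusted p 0.0228) missed the threshold on upper-quartile scaling (0.14, adjusted p 0.273). It also did so when tup1 MATalpha replicate 1 (0.0756) or 3 (0.177), or WT MATalpha replicate 1 (0.0895) or 2 (0.0619), was left out. The interaction of KCH1 was 0.31 (adjusted p 0.137) and was called without tup1 MATalpha replicate 2 (adjusted p 0.016).

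Of the other chitin synthases, CHS3, which makes most of the chitin of the wall, averaged 983 CPM in tup1 MATalpha, against 418 CPM in WT MATalpha (log2 1.23, adjusted p 5.11e-11), with an interaction of 1.02 (adjusted p 1.8e-06). Its change in MATa was 0.21 (adjusted p 0.0352), a call ended by upper-quartile scaling (adjusted p 0.235), by a fit of the MATa libraries alone (adjusted p 0.0563) and by leaving out tup1 MATa replicate 1 or 2, any WT MATa replicate, or WT MATalpha replicate 2 (adjusted p 0.0511 to 0.0993). CHS2, which makes the primary septum, rose by log2 0.30 in MATalpha (adjusted p 0.00217) and 0.27 in MATa (adjusted p 0.00782), with an interaction of 0.03 (adjusted p 0.875). On upper-quartile scaling CHS2 missed the threshold in both mating types (adjusted p 0.0577 to 0.0688). TGAAACA was found before CHS3 and KCH1, which is 2 of the 9 relatives (22.2%), against 12% of all genes.

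**Figure D4:**
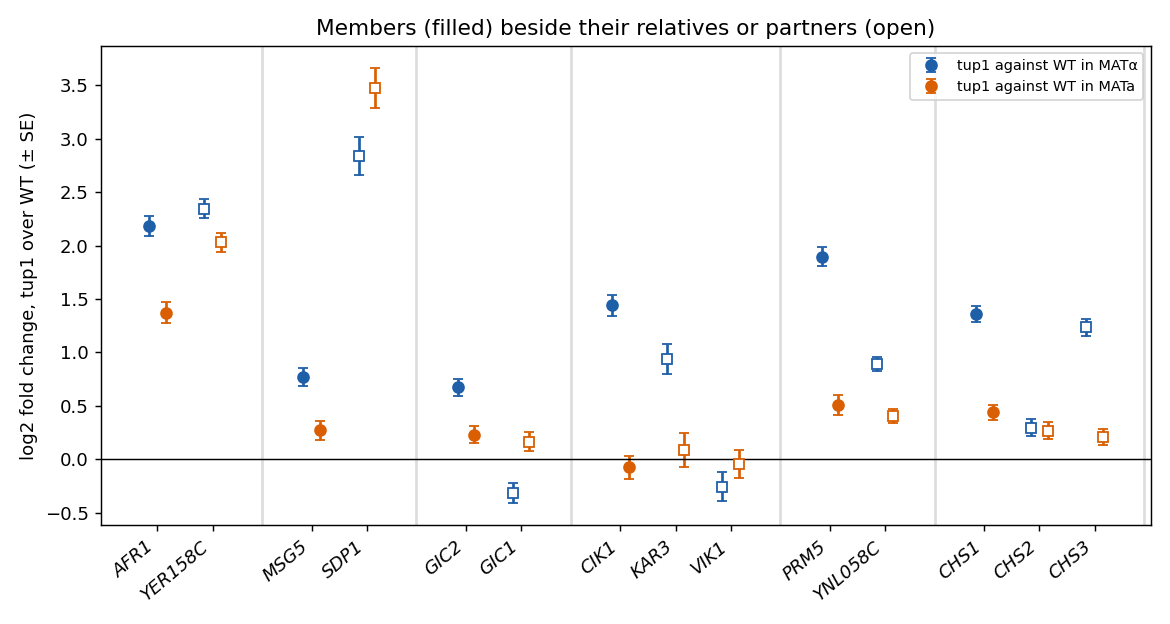
Log2 fold changes of members (filled) beside their relatives or partners (open) in MATalpha and MATa, with bars of 1 SE. YER158C and SDP1 rose in both mating types, GIC1 lies below 0 in MATalpha while GIC2 lies above. In MATalpha KAR3 (0.94) and CHS3 (1.23) lie nearer to CIK1 (1.44) and CHS1 (1.36) than VIK1 (-0.26) and CHS2 (0.30) do, while in MATa all of these lie between -0.07 and 0.44.

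The wider pathway was described from lists of genes that leave out the 10 members, and some genes stand in more than 1 list. Their counts stand beside shares over all tested genes of 32% higher and 31% lower in MATalpha, and 24.7% higher and 16.7% lower in MATa. Among 13 genes of the G protein and kinase cascade, 3 rose and 2 fell in MATalpha and 0 rose and 2 fell in MATa, with a median log2 change of 0.15 in MATalpha and -0.02 in MATa. With upper-quartile scaling the cascade counts were 2 higher and 4 lower in MATalpha, and 0 higher and 4 lower in MATa. FUS3, the mating kinase, rose by log2 1.29 in MATalpha, while DIG1, an inhibitor of Ste12, fell by 0.54 on the log2 scale. Of 9 negative regulators, 6 rose and 2 fell in MATalpha (median 0.32) and 3 rose and 2 fell in MATa (median 0.06). With upper-quartile scaling 4 of these regulators rose and 2 fell in MATalpha (median 0.17). BAR1, the protease that degrades alpha-factor, rose by log2 6.89 in MATalpha (adjusted p 4.16e-13) and fell by 0.88 on the log2 scale in MATa (adjusted p 5.18e-05), so that its changes, like those of SST2, had opposite signs. PTP2, a tyrosine phosphatase of Fus3 and Hog1, rose by log2 1.16 in MATalpha and 0.58 in MATa.

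Of 17 other pheromone-induced genes, 16 rose and 0 fell in MATalpha, with a median log2 change of 2.64 and STE12 as the gene not called. In MATa, 1 rose and 2 fell, with a median of -0.13. PRM2 rose by log2 6.67, FIG1 by 8.28 and PRM1 by 6.90 in MATalpha. Of the 17, FIG1, PRM2 and PRM3 passed the low-count filter through tup1 MATalpha alone, and without these 3 the count was 13 higher of 14, with a median of 2.32. The 10 pheromone and receptor genes gave 9 rises and 0 falls in MATalpha, and 1 rise and 2 falls in MATa. STE2, the alpha-factor receptor gene, rose by log2 6.70 in MATalpha (adjusted p 4.04e-16), against -0.07 in MATa (adjusted p 0.664).

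Of 17 polarity genes, 4 rose and 9 fell in MATalpha (median -0.18), where 32% of all tested genes rose and 31% fell, and 1 rose and 1 fell in MATa (median 0.02). With upper-quartile scaling 2 rose and 12 fell in MATalpha, and 1 rose and 3 fell in MATa. FAR1, the scaffold that also arrests the cell cycle, rose by log2 1.11 in MATalpha, while SPA2, a polarisome subunit, fell by 0.52 on the log2 scale. Of 12 septin and chitin genes, 4 rose and 5 fell in MATalpha (median -0.05) and 2 rose and 1 fell in MATa (median -0.04). With upper-quartile scaling these counts were 3 higher and 7 lower in MATalpha, and 0 higher and 5 lower in MATa. CHS7, which exports Chs3 from the endoplasmic reticulum, rose by log2 0.95 in MATalpha, and BNI4, which ties Chs3 to the septins, fell by 0.52 on the log2 scale.

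Of 8 filamentation genes known to act with Tec1, 4 rose and 2 fell in MATalpha (median 0.14), where 32% of all tested genes rose and 31% fell. In MATa 5 rose and 2 fell (median 0.42), where 24.7% rose and 16.7% fell. FLO11, the cell surface flocculin of filamentous growth, rose by log2 2.88 in MATalpha and 3.62 in MATa. PGU1, which encodes a secreted pectinase, fell in both, and is named although it was chosen after its values were seen. Of 12 cell wall integrity genes, 8 rose and 2 fell in MATalpha (median 1.11) and 7 rose and 1 fell in MATa (median 0.90). With upper-quartile scaling 8 of the cell wall integrity genes rose and 4 fell in MATalpha. PIR3, a cell wall protein and target of Rlm1, rose by log2 6.01 in MATalpha and 5.11 in MATa.

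The counts of all genes depend on the scaling. With upper-quartile scaling the median log2 change of all tested genes was -0.18 in MATalpha and -0.12 in MATa, and 37.5% of the calls in MATalpha were rises, against 50.8% with TMM. In MATa 38.5% of the calls were rises on that scaling, against 59.6% with TMM. Of the 9 genes other than PRM6, all rose in MATalpha and 4 rose and 1 fell in MATa on that scaling. For the lists, the median of the filamentation genes in MATalpha was -0.01 in place of 0.14, and those of the negative regulators and polarity genes in MATa became -0.04 and -0.09.

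Across the 12 libraries, the genes whose log2 CPM followed each member most closely were found by Pearson's r, as a description over 4 strains with 3 libraries each. SST2 was followed by FUS1 (0.989), ARG4 (0.981) and MET13 (0.973). FUS1 averaged 165 ± 43.0 CPM in tup1 MATalpha and 15.6 ± 4.02 CPM in WT MATalpha, and 3.03 ± 0.881 CPM in tup1 MATa and 11.6 ± 0.636 CPM in WT MATa (SD, n = 3 each). It thus rose in MATalpha (log2 3.38 ± 0.21, adjusted p 1.84e-08) and fell in MATa (-1.91 ± 0.39, adjusted p 0.00174), the directions seen for SST2. PRM2 was the gene closest to both CIK1 (0.992) and PRM6 (0.995). PRM2 and PRM6 both passed the low-count filter through tup1 MATalpha alone, so a high r between them was largely fixed. YNR066C was the closest to PRM4, to PRM5 (0.995) and to CHS1 (0.994). TEC1 was followed by RPN4 (0.975), RGA1 (0.972) and FUS3 (0.962), AFR1 by HAL1 (0.995), MSG5 by ECL1 (0.987) and GIC2 by VIR1 (0.985).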

How the data were processed

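RNA was measured in 12 libraries, 3 for each of 4 strains. The values are raw counts, deposited by the authors in a single table of genes and libraries. The submitters' processing notes name cutadapt 2.8, STAR 2.7.3, featureCounts 1.6.3 and the builds sacCer3 and R64. Neither the strand setting nor the handling of reads that fit several places is given in the sources used. None of the 19 members and relatives overlaps another annotated gene in R64. The counts were tested in edgeR 4.0.16 (R 4.3.3) after filterByExpr by group at a minimum count of 10 and TMM scaling. All libraries entered 1 robust quasi-likelihood fit of 4 group means (8 residual degrees of freedom), and 5 two-sided contrasts were drawn from it. The SE of a log2 fold change is its size divided by the square root of F. The fit was run on simulated counts with 200 genes changed in tup1 MATalpha and the same spread in all groups. That setting does not check the wider spread of the tup1 libraries. The members, lists and relatives were chosen with earlier results of these data known. At most 3 genes a list are named, those with the lowest adjusted p in tup1 against WT in MATalpha, and up to 3 genes most like each member by r. Alternatives were RLE and upper-quartile scaling, no filter, DESeq2 1.42.0, each comparison fitted on its own libraries, a replicate block, and each library left out in turn.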

Additional observations from a re-analysis of the deposited data

Results flagged for a closer look

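Each result here was singled out because the effect of tup1 differed between the mating types by the interaction term of edgeR's quasi-likelihood fit, given as the log2 effect in MATalpha minus that in MATa. Of the members, PRM4 had 2.27, SST2 2.17, CIK1 1.51, PRM5 1.39, CHS1 0.92, AFR1 0.81, MSG5 0.49, TEC1 0.48 and GIC2 0.44. PRM6, with no fold in MATa, had an adjusted p of 0.0074, which is no support because the low-count filter fixed its direction. SST2 was the member whose called effects had opposite signs. Of the relatives, CHS3 had 1.02, KAR3 0.85, YNL058C 0.49 and GIC1 -0.48.

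Positive differences were also found for MFA2 (9.14), FIG1 (8.59), BAR1 (7.76), PRM1 (7.26), PRM2 (7.17), STE2 (6.76), FUS1 (5.29) and STE6 (4.48). These are genes of the mating response or of MATa cells. FIG1 and PRM2 passed the low-count filter through tup1 MATalpha alone, so the direction of their differences was fixed. The sizes of those differences rest on few counts in the other groups. Smaller positive differences were found for FUS3 (1.15), FAR1 (1.14), YPS3 (0.93), PIR3 (0.90), CHS7 (0.84), SED1 (0.59), PTP2 (0.58) and RGA1 (0.45). Negative differences were found for BNI4 (-0.49), DIG1 (-0.47), SPA2 (-0.45) and STE20 (-0.42).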

How the results depend on the processing

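The number of the 10 genes called higher in MATalpha was 10 under every alternative run, and 10 for tup1 MATalpha against tup1 MATa, counting PRM6, whose direction the low-count filter fixed. No called log2 change of a member reversed its sign. In MATa the members called higher were 4 to 6 and those called lower 1 when single libraries were left out, with 1860 to 2503 genes called. For the interaction they were 9 to 10, with 1050 to 1960 genes called. With single libraries left out, genes called numbered 3190 to 3784 in MATalpha and 1676 to 2209 for tup1 MATalpha against tup1 MATa. With the tup1 libraries fitted alone, tup1 MATalpha against tup1 MATa gave 1325 genes, against 1981 in the main fit. The comparison of WT MATalpha with WT MATa, with 51 genes called, was the least stable. It gave 1091 genes with the WT libraries fitted alone, with 1 member called, and 24 to 399 when single libraries were left out, the highest without tup1 MATa replicate 1 and 92 without tup1 MATa replicate 3. The cause was not tested. Replicate numbers did not pair the libraries: same-numbered libraries correlated at -0.29 to 0.12 in their deviations from the group means, and 3 of 12 libraries correlated best with their own number. With the replicate block, 3497 genes were called in MATalpha, 2234 in MATa, 1269 for the interaction, 35 in WT and 1893 in tup1, and the members' counts did not change. PRM6 at 0 to 1 counts per library outside tup1 MATalpha limits what can be said of it there.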
